A study of Mus musculus with 10 samples.

Results

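Lipid droplet coats and lipolysis are described here through 10 genes of 41388 in the count tables, measured by RNA-seq in 10 mouse livers. The genes were chosen by name from what their proteins do, with earlier results of these data known. They are the perilipins Plin2, Plin3, Plin4 and Plin5, the droplet fusion proteins Cidec and Cideb, the lipase Pnpla2 with its inhibitor G0s2 and its co-activator Abhd5, and the hypoxia-inducible droplet protein Hilpda. All 10 were found in every library and all 10 passed the filter on low counts, above 1 CPM (counts scaled to the library total) in at least 1 library, as did 13444 genes in all.

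WT livers came from Nampt LoxP/LoxP littermates without Cre, and NAMPT LKO livers from Nampt LoxP/LoxP mice carrying Albumin-cre, all C57B/6J and 12 weeks old. Cre under the albumin promoter deletes Nampt, the gene of the rate-limiting enzyme of NAD+ salvage, in hepatocytes, so the other cells of the liver can still express it. The groups were WT Refed (n = 2, a 22 h fast and then 2 h of food), WT Fasting (n = 3, 24 h without food) and NAMPT LKO Fasting (n = 5, 24 h without food). The labels give these times, whereas the study's text describes a shorter fast and random-fed controls, and its legend counts 1 more WT Fasting mouse than the 3 analysed here.

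A lipid droplet is a core of triglyceride and sterol ester inside a single layer of phospholipid, and the proteins on that layer decide which lipases reach the core. Perilipins shield the droplet, CIDE proteins let droplets exchange lipid and grow, and the lipase ATGL, encoded by Pnpla2, takes the first fatty acid off triglyceride. ABHD5 activates ATGL, G0S2 and HILPDA inhibit it, and in the fasted liver droplets fill with fatty acids that arrive from adipose tissue while lipolysis feeds them to oxidation.

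Total counts ran from 30603080 to 43434139 per library, and no library pair in a group agreed within sampling noise. In TMM-normalized CPM, Nampt was at 78.0 and 67.8 in the WT Refed livers, at 63.0, 73.4 and 141 in the WT Fasting livers and between 11.8 and 15.3 in the 5 NAMPT LKO livers. It was lower in NAMPT LKO Fasting than in WT Fasting livers by a log2 fold change of -2.81 (SE 0.22, adjusted p = 0.00102, edgeR's quasi-likelihood test). WT Fasting mouse 3 and NAMPT LKO mouse 5 stood apart, with 7.42% and 21.1% of counts on mitochondrial genes against 10.4% to 12.9% in the other libraries. NAMPT LKO mouse 5 was the lowest of its group for 7 of the 10 droplet genes and the highest for Cidec. Hepatocyte markers were abundant in every liver (summed level of 6 markers 59880 to 107187 CPM). Of 7 adipocyte markers, Fabp4 had 224 to 494 counts per library, Cfd 6 to 71 and the other 5, Adipoq, Lep, Retn, Plin1 and Cidea, at most 10. Their summed level was 7.10 and 7.33 CPM in the WT Refed livers, 7.68 to 11.7 CPM in the WT Fasting livers and 7.55 to 15.4 CPM in the NAMPT LKO Fasting livers. In whole liver, fewer cells of a type and less RNA per cell cannot be told apart.

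Shown are the starts of the 3 genes with an adjusted p at or under 0.05 in WT Fasting against WT Refed livers (from RefSeq, GRCm38.p6). All 3 were higher in WT Fasting livers, and they were picked by that result. Each stretch is 120 bases on the gene's own strand. It stops before the more upstream of the RefSeq start and the gene start deposited with the counts. Capitals mark bases of a motif match.
Plin2, minus strand, chr4:86670061-86670180: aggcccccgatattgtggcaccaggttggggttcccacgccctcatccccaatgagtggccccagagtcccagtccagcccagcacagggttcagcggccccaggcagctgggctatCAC
Plin4, minus strand, chr17:56109804-56109923: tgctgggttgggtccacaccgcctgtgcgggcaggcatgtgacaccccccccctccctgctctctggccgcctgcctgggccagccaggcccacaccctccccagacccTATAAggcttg
Pnpla2, plus strand, chr7:141455068-141455187: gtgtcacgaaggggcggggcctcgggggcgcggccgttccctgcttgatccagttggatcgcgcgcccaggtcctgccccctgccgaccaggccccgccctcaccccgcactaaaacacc

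In Plin2 the capitals are the beginning of an E-box, CACGTG, that runs across the start site itself and holds the hypoxia core ACGTG on both strands. In Plin4 they are a TATA box core, TATAA, whose letters begin 32 bases before the RefSeq start. No searched motif was found near the start of Pnpla2. The search covered both strands of 32851 windows, from 250 bases before to 50 after each RefSeq start. All 10 genes matched, with 13 windows. The E-box was in 7.15% of all windows, ACGTG in 19.6%, TATAA in 24.9%, the forkhead letters GTAAACA in 3.65%, the PPAR direct repeat AGGNCANAGGNCA in 0.381% and the glucocorticoid palindrome GNACANNNTGTNC in 0.475%. Of the other droplet genes, Plin5 held TATAA from 27 bases before its start, Cideb and Hilpda held it farther upstream, and Hilpda held ACGTG. None of the 13 windows held the forkhead, PPAR or glucocorticoid letters, which says only that these letters are not in these windows.

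The comparison of WT Fasting with WT Refed livers asks which droplet genes differ between a fasted and a briefly refed liver. Plin2, Plin4 and Pnpla2 were higher in WT Fasting livers, by 2.13-fold, 3.52-fold and 2.01-fold. These were 3 of the 10 genes called at an adjusted p at or under 0.05, all of them higher, while 0 were called lower. Over all genes tested 7.04% were called, 2.68% higher and 4.36% lower. Scaling by library size alone called the same 3 droplet genes, but moved the share of called genes that were higher from 38.1% to 25.7%. The median log2 fold change was 0.41 over the 10 droplet genes and 0.04 over all genes tested. For 8 of the 10 the livers of both groups did not overlap, which was so for 49.7% of all genes. The calls rest on both WT Refed livers. With either of them left out, the remaining one was taken to vary like the other groups and 0 of the 10 were called, where 1.43% and 0.796% of all genes were called. The summed levels of adipocyte, stellate cell, Kupffer cell and endothelial markers were also higher in the WT Fasting than in the WT Refed livers without overlap (stellate cell 305 to 382 against 295 and 297 CPM, endothelial 273 to 292 against 252 and 258 CPM). Within the lists the markers did not all go the same way. The adipocyte sum was mostly Fabp4 (mean 8.12 against 6.33 CPM), and Cfd was also higher. Adipoq, Plin1, Lep, Cidea and Retn, at most 10 counts each, were lower. Lrat of the stellate cell list (10.7 against 14.6 CPM) and Lyve1 of the endothelial list (18.28 against 18.34 CPM) were lower too. The part of these cell types in the droplet gene values was not tested.

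Plin2 encodes the perilipin that coats most droplets of hepatocytes and is stable only while bound to lipid. Its level was 318 and 314 CPM in the WT Refed livers, 794, 621 and 606 CPM in the WT Fasting livers, and 752, 604, 549, 590.4 and 512 CPM in the NAMPT LKO Fasting livers. Every fasted liver of either genotype lay above both refed livers, and the fasted groups overlapped. The log2 fold change between WT Fasting and WT Refed livers was 1.09 (SE 0.18, adjusted p = 0.00663). Without WT Refed mouse 1 or mouse 2 it was 1.09 and 1.08, with adjusted p of 0.0792 and 0.0929.

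Plin4, which coats small nascent droplets mainly in adipose tissue and muscle, was the lowest of the 4 perilipins per kb of exon. In CPM it stood at 7.98 and 12.7 CPM in the WT Refed livers, at 47.3, 33.2 and 28.4 CPM in the WT Fasting livers and at 22.9, 30.8, 33.1, 33.1 and 15.7 CPM in the NAMPT LKO Fasting livers. Again no fasted liver reached down to a refed one, and the WT Refed livers themselves differed by more than they did for Plin2. WT Fasting livers exceeded WT Refed livers by 1.81 on the log2 scale (SE 0.35, adjusted p = 0.0123). It was 1.51 without WT Refed mouse 1 and 2.18 without mouse 2 (adjusted p = 0.141 and 0.0653).

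Plin5, which ties droplets to mitochondria in oxidative tissue, lies next to Plin4 on chromosome 17. In GRCm38, Plin4 spans chr17:56100591-56109803 and Plin5 spans chr17:56111601-56117596, both on the minus strand. Its level was 83.0 and 101 CPM in the WT Refed livers, 139, 132 and 128 CPM in the WT Fasting livers, and 109, 119, 143, 125 and 78.0 CPM in the NAMPT LKO Fasting livers. The WT groups did not overlap, while NAMPT LKO mouse 5 was below both refed livers. The log2 fold change between WT Fasting and WT Refed livers was 0.53 (95% interval 0.07 to 0.99, adjusted p = 0.165), short of a call.

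Plin3, the perilipin found both in the cytosol and on young droplets, was at 35.2 and 34.8 CPM in the WT Refed livers, between 30.3 and 34.3 CPM in the WT Fasting livers and between 26.1 and 36.4 CPM in the NAMPT LKO Fasting livers. Its log2 fold change between WT Fasting and WT Refed livers was -0.11 (95% interval -0.44 to 0.21, adjusted p = 0.71).

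**Figure D1:**
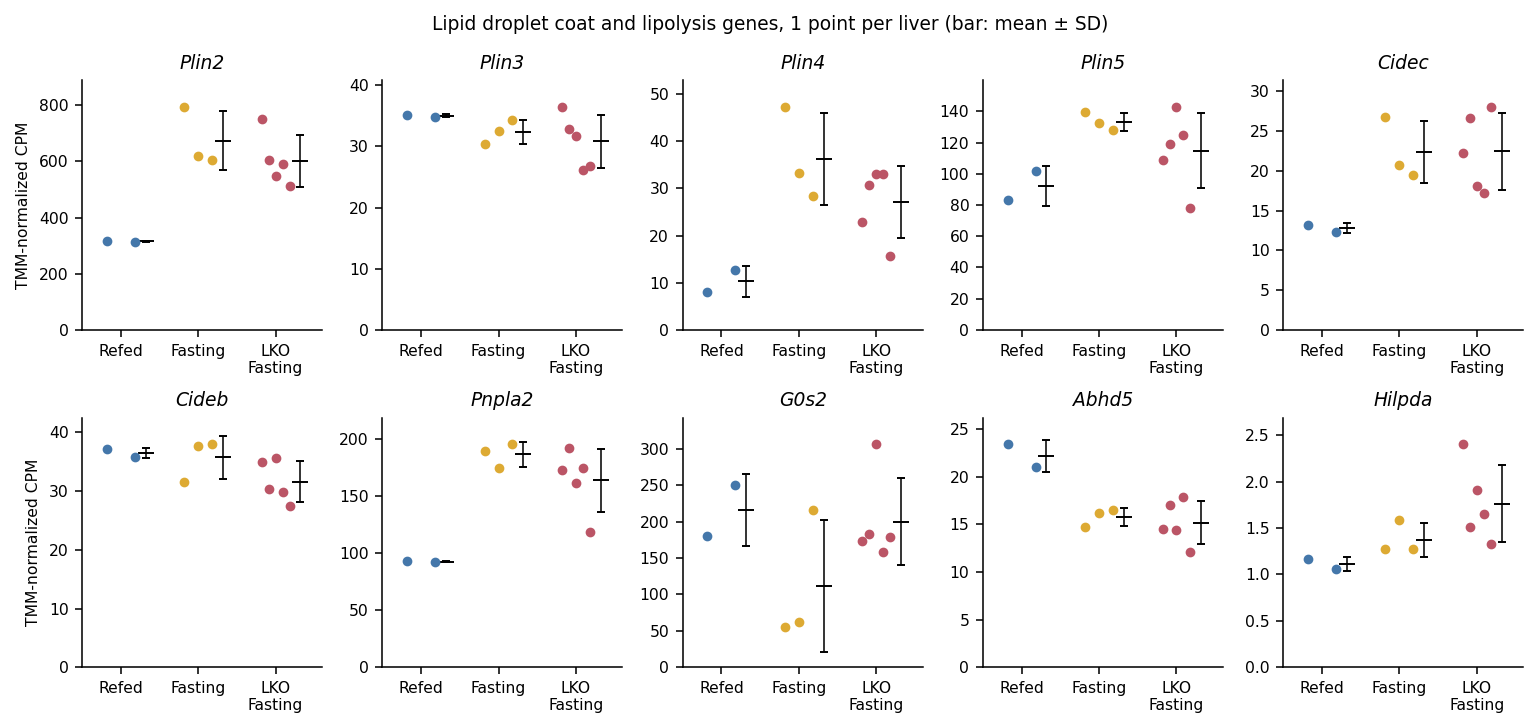
Level of each of the 10 genes in TMM-normalized CPM (vertical axis from 0, its own range per panel) by group, with 1 point per liver and the mean ± SD beside the points (n = 2 WT Refed, 3 WT Fasting, 5 NAMPT LKO Fasting). All 8 fasted livers lie above both refed livers for Plin2, Plin4, Cidec and Pnpla2, and below both for Abhd5, and WT Fasting mouse 3 lies far above the other WT Fasting livers for G0s2.

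Per kb of exon, where genes can be compared with each other, the perilipins summed to 152 ± 6.04 CPM per kb in WT Refed (SD, n = 2), 277 ± 33.2 in WT Fasting (SD, n = 3) and 245 ± 31.6 in NAMPT LKO Fasting livers (SD, n = 5). Plin2 made up 57.2% and 61.2% of that sum in the WT Refed livers, 67.7% to 71.7% in the WT Fasting livers and 63.8% to 74.6% in the NAMPT LKO Fasting livers. The share of Plin3 was 10.3% and 11.01% in the refed livers and between 4.46% and 6.28% in the 8 fasted livers. The share of Plin5 was 26.9% and 31.1% in the refed livers, 21.2% to 24.3% in the WT Fasting livers and 18.2% to 27.9% in the NAMPT LKO Fasting livers. Plin4 had the smallest share in every liver, between 0.934% and 2.596%. Its mean share was 1.17% in WT Refed, 2.24% in WT Fasting and 1.91% in NAMPT LKO Fasting livers. Both refed livers lay below all WT Fasting livers, which ran from 1.93% to 2.596%. The NAMPT LKO Fasting livers, from 1.37% to 2.34%, overlapped the refed ones.

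**Figure D2:**
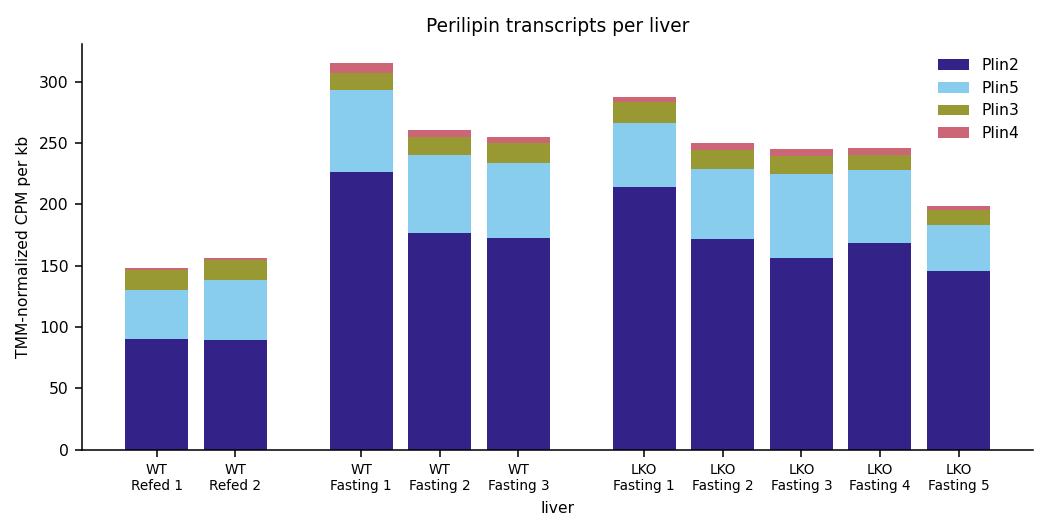
Stacked level of the 4 perilipins in each liver, in TMM-normalized CPM per kb of exon (vertical axis from 0), with the livers grouped as WT Refed, WT Fasting and NAMPT LKO (LKO) Fasting. The refed bars reach 148 and 156, and the fasted bars reach 198 to 315, with Plin2 the largest layer in every liver.

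The log2 ratio of Plin5 to Plin2 per kb was -1.03 ± 0.22 in WT Refed (SD, n = 2), -1.58 ± 0.16 in WT Fasting (SD, n = 3) and -1.66 ± 0.35 in NAMPT LKO Fasting livers (SD, n = 5). The refed livers lay above all fasted ones. The exact permutation test over livers (two-sided) gave p = 0.2 for WT Fasting against WT Refed, the smallest p that 3 livers against 2 allow, and p = 0.0952 for NAMPT LKO Fasting against WT Refed, the smallest that 5 against 2 allow. For NAMPT LKO Fasting against WT Fasting the difference was -0.08 (exact permutation p = 0.75). With Benjamini-Hochberg adjustment over the 9 ratio tests, 0 passed.

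Cidec encodes FSP27, which lets lipid pass between droplets in contact so that the larger one grows, and its liver level is low without fasting or fat loading. It was at 13.2 and 12.4 CPM in the WT Refed livers, at 26.8, 20.7 and 19.5 CPM in the WT Fasting livers and at 22.2, 26.7, 18.1, 17.3 and 28.0 CPM in the NAMPT LKO Fasting livers. All 8 fasted livers lay above both refed ones. Between the WT groups the log2 fold change was 0.80 (SE 0.23), and with an adjusted p = 0.0616 it missed the threshold. It passed the threshold in 5 of 13 alternatives, among them DESeq2 (adjusted p = 0.0152). Without WT Fasting mouse 1 it was 0.64 (adjusted p = 0.165, quasi-likelihood test). Without WT Refed mouse 1 or mouse 2 it was 0.84 and 0.75.

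Cideb, the CIDE protein of hepatocytes that also loads lipid onto VLDL, was at 37.1 and 35.8 CPM in the WT Refed livers, between 31.5 and 37.9 CPM in the WT Fasting livers and between 27.4 and 35.6 CPM in the NAMPT LKO Fasting livers. Its log2 fold change between WT Fasting and WT Refed livers was -0.03 (95% interval -0.34 to 0.28, adjusted p = 0.922). This value is uncertain, because 76.4% of the exonic bases of Cideb are shared with Nop9 on the other strand and the strand setting of the counting is not given in the sources used here. The log2 ratio of Cidec to Cideb per kb was -1.82 ± 0.03 in WT Refed (SD, n = 2), -0.998 ± 0.39 in WT Fasting (SD, n = 3) and -0.83 ± 0.42 in NAMPT LKO Fasting livers (SD, n = 5), without overlap between refed and fasted livers.

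Pnpla2 encodes ATGL, the lipase that starts the breakdown of stored triglyceride. Its level was 92.8 and 92.2 CPM in the WT Refed livers, 189.8, 174 and 195 CPM in the WT Fasting livers, and 173, 192, 162, 174 and 118 CPM in the NAMPT LKO Fasting livers. The refed livers were nearly equal, and every fasted liver lay above them, with NAMPT LKO mouse 5 the closest. The log2 fold change between WT Fasting and WT Refed livers was 1.01 (SE 0.18, adjusted p = 0.00873). It was 1.00 without WT Refed mouse 1 or mouse 2, with adjusted p of 0.0938 and 0.109.

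G0s2, whose small protein binds ATGL and blocks it, had the widest spread among livers of one group. It stood at 180.5 and 251 CPM in the WT Refed livers, at 55.7, 62.3 and 216 CPM in the WT Fasting livers and at 173, 184, 306, 158 and 179 CPM in the NAMPT LKO Fasting livers. WT Fasting mice 1 and 2 were below every other liver, and WT Fasting mouse 3 was within the range of the other groups. With all livers, the log2 fold change between WT Fasting and WT Refed livers was -0.95 (SE 0.50, adjusted p = 0.29). Without WT Fasting mouse 3 it was -1.88 and called (adjusted p = 0.00775), and without mouse 1 or mouse 2 it was -0.64 and -0.67 (adjusted p = 0.507 and 0.528). That liver also had the highest Nampt level, the lowest mitochondrial share and the highest summed level of 7 Kupffer cell or macrophage markers, 462 CPM against 232 and 233 CPM in the other WT Fasting livers and 159 to 358 CPM elsewhere. Their part in the G0s2 level was not tested.

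**Figure D3:**
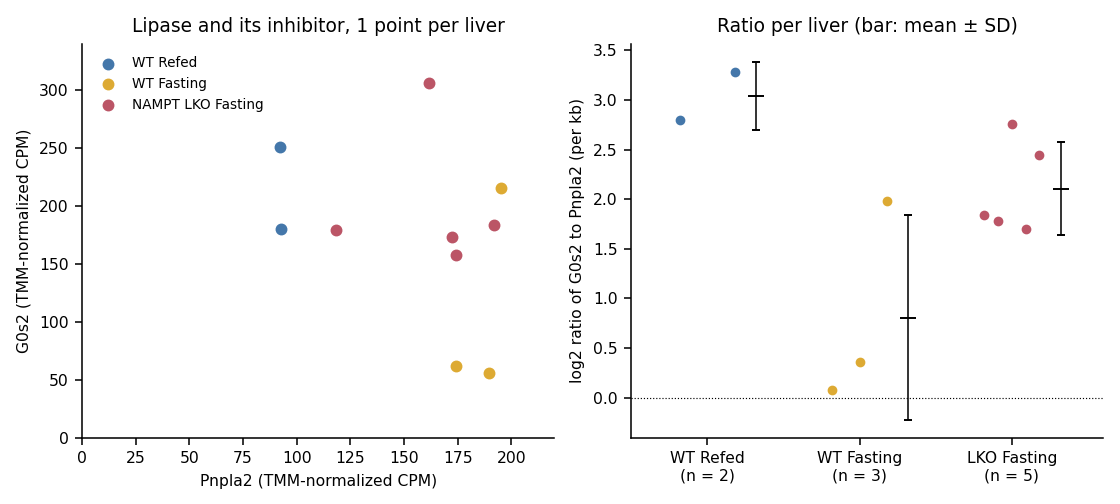
Left, level of G0s2 against Pnpla2 in TMM-normalized CPM with 1 point per liver, and right, log2 ratio of G0s2 to Pnpla2 per kb of exon by group with the mean ± SD (n = 2, 3 and 5). WT Fasting mice 1 and 2 lie apart at high Pnpla2 and low G0s2 (log2 ratios 0.07 and 0.36), while the other 8 livers have log2 ratios of 1.70 to 3.29.

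The log2 ratio of the inhibitor G0s2 to the lipase Pnpla2 per kb was 2.80 and 3.29 in the WT Refed livers, 0.07, 0.36 and 1.99 in the WT Fasting livers, and 1.85, 1.78, 2.76, 1.70 and 2.45 in the NAMPT LKO Fasting livers. Both refed livers lay above all fasted livers, and the fasted groups overlapped through WT Fasting mouse 3. The difference between WT Fasting and WT Refed livers was -2.24 (two-sided exact permutation p = 0.2, which 3 livers against 2 cannot undercut). NAMPT LKO Fasting livers were 1.30 above WT Fasting livers (exact permutation p = 0.143, 0.257 after adjustment over the 9 ratio tests). The difference was 1.89 without WT Fasting mouse 3 (exact permutation p = 0.0952, the smallest that 5 livers against 2 allow). It was smaller than 1.30 without WT Fasting mouse 1 or mouse 2.

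Abhd5 encodes the co-activator of ATGL that perilipins hold back at the droplet. Its level was 23.4 and 20.98 CPM in the WT Refed livers, 14.7, 16.2 and 16.5 CPM in the WT Fasting livers, and 14.6, 17.0, 14.4, 17.8 and 12.1 CPM in the NAMPT LKO Fasting livers. All 8 fasted livers lay below both refed ones. The log2 fold change between WT Fasting and WT Refed livers was -0.49 (SE 0.17, adjusted p = 0.105), which is not a call. Abhd5 shares 26.3% of its exonic bases with the antisense gene A730085K08Rik, which had at most 4 counts in any library.

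Hilpda, the inhibitor of ATGL that responds to hypoxia and fatty acids, was the least abundant of the 10 genes, with 45 to 80 counts per library. It was at 1.17 and 1.06 CPM in the WT Refed livers, at 1.27, 1.58 and 1.27 CPM in the WT Fasting livers and at 2.40, 1.51, 1.91, 1.66 and 1.33 CPM in the NAMPT LKO Fasting livers. The fasted livers lay above the refed ones, but the log2 fold change of 0.30 between WT Fasting and WT Refed livers had a 95% interval from -0.39 to 0.99 (adjusted p = 0.622).

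The number called in this comparison depended on the test. With limma's voomWithQualityWeights, which gives each library its own weight, 7 of the 10 genes were called against 24.8% of all genes. The added genes were Plin5, Cidec, G0s2 and Abhd5. Without WT Fasting mouse 3 and NAMPT LKO mouse 5, 7 of the 10 genes were again called by the quasi-likelihood test, against 17.0% of all genes.

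The comparison of NAMPT LKO Fasting with WT Refed livers uses the same refed livers, so its values are not independent of those above. Plin2, Plin4, Cidec and Pnpla2 were higher in the NAMPT LKO Fasting livers and Abhd5 was lower. These 5 of 10 genes compare with 11.2% of all genes called, 4.65% higher and 6.58% lower. The share of called genes that were higher was 41.4%, and 26.1% when scaled by library size alone. For 7 of the 10 genes the livers did not overlap, as for 33.5% of all genes. The log2 fold change was 0.93 for Plin2 (SE 0.17, adjusted p = 0.0069). It was 1.39 for Plin4 (SE 0.33, adjusted p = 0.0213) and 0.82 for Pnpla2 (SE 0.17, adjusted p = 0.0115). Cidec was at 0.81 (SE 0.22, adjusted p = 0.0359) and Abhd5 at -0.55 (SE 0.15, adjusted p = 0.0395). Of the genes not called, Hilpda was at 0.66 (adjusted p = 0.182), Plin5 at 0.31 (adjusted p = 0.34) and G0s2 at -0.11 (adjusted p = 0.91). Without WT Refed mouse 1 or mouse 2, 0 of the 10 were called, against 2.58% and 1.68% of all genes. Cidec and Abhd5 also lost their calls without NAMPT LKO mouse 1 or mouse 2 (adjusted p 0.0505 to 0.0727, with 8.77% and 7.32% of all genes called), and Abhd5 without mouse 3 (adjusted p = 0.0751, with 8.16%). Both lost them when only these groups were fitted (adjusted p = 0.0521 and 0.0681), and Abhd5 also with library size alone (adjusted p = 0.0522) and with no filter (adjusted p = 0.0501). Plin5 was called without NAMPT LKO mouse 5 (log2 fold change 0.43, adjusted p = 0.0317), where 21.1% of all genes were called. With voomWithQualityWeights, 7 of the 10 genes were called against 31.8% of all genes. Without WT Fasting mouse 3 and NAMPT LKO mouse 5, 6 were called by the quasi-likelihood test against 24.8% of all genes. The summed level of 5 cholangiocyte markers was 34.0 to 54.5 CPM in NAMPT LKO Fasting and 20.1 and 22.4 CPM in WT Refed livers. That of 6 stellate cell markers was 308 to 360 against 295 and 297 CPM, and the adipocyte sums given above did not overlap either. In the stellate cell list Dcn rose most (mean 172 against 121 CPM), and Reln, Des and Colec11 were also higher. Lrat (11.9 against 14.6 CPM) and Ecm1 (93.1 against 107 CPM) were lower. The adipocyte sum was mostly Fabp4 (9.41 against 6.33 CPM). Adipoq, Cfd and Lep were also higher, and Plin1, Cidea and Retn were lower. The part of these cell types in the droplet gene values was not tested.

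The comparison of NAMPT LKO Fasting with WT Fasting livers asks whether the droplet genes of a fasted liver differ when hepatocytes lack Nampt. None of the 10 was called (edgeR's quasi-likelihood test), 0 had an unadjusted p under 0.05, against 811 of all 13444 genes, and 0 were called by voomWithQualityWeights or DESeq2. Over all genes 0.00744% were called, which is Nampt alone. The livers overlapped for all 10 genes, where 3.99% of all genes did not overlap. The median log2 fold change was -0.12 over the 10 genes and 0.000248 over all genes tested. NAMPT LKO mouse 5 was the lowest of its group for 7 of the 10 genes, and its part in this median was not tested.

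The intervals show what this comparison could still hold. For Plin2 the log2 difference was -0.16 (95% interval -0.48 to 0.15), for Pnpla2 -0.19 (-0.49 to 0.12), for Cidec 0.01 (-0.39 to 0.40) and for Abhd5 -0.06 (-0.35 to 0.24). For Plin3 it was -0.07 (-0.33 to 0.19), for Cideb -0.18 (-0.42 to 0.07) and for Plin5 -0.22 (-0.58 to 0.15). The widest were Plin4 at -0.42 (-0.99 to 0.15), Hilpda at 0.36 (-0.19 to 0.91) and G0s2 at 0.85 (-0.07 to 1.77, unadjusted p = 0.0679, adjusted p = 0.837). The G0s2 difference was 0.52 without WT Fasting mouse 1, 0.56 without mouse 2 and 1.76 without mouse 3 (adjusted p = 0.803, 0.925 and 0.174). All 5 NAMPT LKO livers lay above WT Fasting mice 1 and 2. The summed level of 5 cholangiocyte markers was 34.0 to 54.5 CPM in NAMPT LKO Fasting and 15.2 to 22.3 CPM in WT Fasting livers, and its part in these values was not tested.

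**Figure D4:**
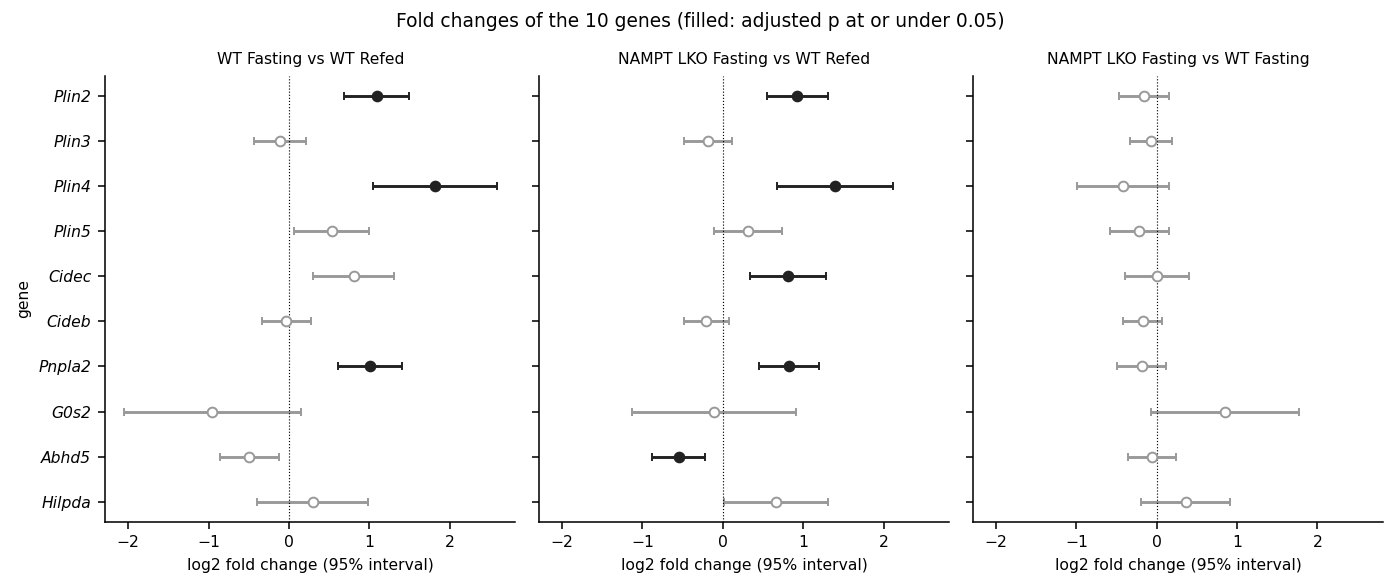
Log2 fold change of each gene (horizontal axis, with its 95% interval from edgeR's quasi-likelihood fit) in the comparisons of WT Fasting with WT Refed, NAMPT LKO Fasting with WT Refed and NAMPT LKO Fasting with WT Fasting livers. Filled points are called at an adjusted p at or under 0.05, which are 3, 5 and 0 of the 10 genes.

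Ordered by level per kb of exon, the genes stood as G0s2, Plin2, Plin5, Pnpla2, Cideb, Plin3, Cidec, Abhd5, Plin4 and Hilpda in the WT Refed livers, from 256 CPM per kb for G0s2 to 1.01 for Hilpda, and no neighbours in that order overlapped over the 2 livers. In the WT Fasting livers Plin2 came before G0s2 (192 and 132 CPM per kb) and Plin4 before Abhd5 (6.28 and 4.37 CPM per kb). There the ranges of Plin2 and G0s2, of G0s2 and Plin5, of Plin5 and Pnpla2 and of Plin3 and Cidec overlapped. In the NAMPT LKO Fasting livers G0s2 was again ahead of Plin2 (238 and 171 CPM per kb), with ranges that overlapped. The place of Cideb in each order is uncertain, because 76.4% of its exonic bases are shared with Nop9 on the other strand. The strand setting of the counting is not given. Pnpla2, the lipase, was at 30.63 CPM per kb in WT Refed livers and its co-activator Abhd5 at 6.13, and in WT Fasting livers these were 61.7 and 4.37.

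Over the 10 livers, the log2 levels of Plin4 and Pnpla2 had a Pearson r of 0.92, those of Plin2 and Pnpla2 0.91, and those of Cidec and Abhd5 -0.82. These values are descriptions over livers that share the group difference. Across all tested genes with a symbol, the patterns most like Plin2 were those of Gm9752, Enc1 and Cpsf4l (r 0.96 to 0.98), and most like Pnpla2 were Ap4m1, Gm17251 and Kansl3 (r 0.97 to 0.98). For Plin4 they were Pim3, Mprip and 4930579G24Rik, for Cidec Reps1, Akip1 and the fatty acid hydroxylase Cyp4a14, and for Abhd5 Tbx3, Opa3 and Gse1 (r 0.95 to 0.97).

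The adipocyte relatives were near 0 in every liver. Plin1, the perilipin of white fat cells, had 0 to 4 counts per library and Cidea, the CIDE protein of brown fat, had 0 to 10. The later lipases of the pathway were expressed. Lipe, which encodes hormone-sensitive lipase, was at 13.0 ± 0.703 CPM in WT Refed (SD, n = 2), 13.6 ± 2.23 in WT Fasting (SD, n = 3) and 12.6 ± 2.34 CPM in NAMPT LKO Fasting livers (SD, n = 5). Mgll, which encodes monoglyceride lipase, was at 399.5 ± 49.5, 345 ± 44.9 and 330.5 ± 62.9 CPM in the same groups. Neither was called in any comparison (adjusted p of at least 0.391).

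Of 100 other genes in 4 lists, 94 were tested. In WT Fasting against WT Refed livers 1 was called higher and 2 lower, in NAMPT LKO Fasting against WT Fasting livers 0 were called, and in NAMPT LKO Fasting against WT Refed livers 7 were called higher and 3 lower. The called shares, 3 and 10 of 94, can be read against the 7.04% and 11.2% of all genes. Both counts rest on single libraries. The 3 became 1 without either WT Refed liver, where 1.43% and 0.796% of all genes were called. The 10 became 0 and 2 without WT Refed mouse 1 or mouse 2 (2.58% and 1.68% of all genes called), 3 without NAMPT LKO mouse 2 (7.32%), 5 and 6 without mouse 3 or mouse 4 (8.16% and 9.04%), and 24 without mouse 5 (21.1%).

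Among the 25 regulators, all tested, Insig2, which holds the sterol sensor SCAP in the endoplasmic reticulum, was higher in WT Fasting than in WT Refed livers (356 ± 70.8 CPM, SD, n = 3, against 105 ± 15.3 CPM, SD, n = 2, log2 fold change 1.77, adjusted p = 0.00274). Against the refed livers, NAMPT LKO Fasting livers were higher for Insig2 (log2 fold change 1.46), for Ppargc1a, a coactivator of fatty acid oxidation (1.76, adjusted p = 0.0236), and for Ppara, the fatty acid receptor of hepatocytes (0.53, adjusted p = 0.0454). In WT Fasting against WT Refed livers Ppargc1a was at 1.13 and Ppara at 0.48, not called (adjusted p = 0.149 and 0.107).

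Of the 23 lipases and esterases tested, 0 were called in WT Fasting against WT Refed livers. Ddhd2, a triglyceride lipase best known from neurons, and Lipc, the hepatic lipase of lipoprotein particles, were higher in NAMPT LKO Fasting than in WT Refed livers (log2 fold changes 1.01 and 0.45, adjusted p = 0.0264 and 0.0343). In WT Fasting against WT Refed livers they were at 0.90 and 0.42, short of a call (adjusted p = 0.066 and 0.0734). Of the 24 tested genes of droplet formation and membrane contact, Vps13c, which bridges droplets and endoplasmic reticulum, was called in that comparison (log2 fold change 0.50, adjusted p = 0.0416) and was at 0.44 in WT Fasting against WT Refed livers (adjusted p = 0.108).

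Of the 22 other droplet-bound proteins tested, the sterol enzyme Lss and the UBX protein Ubxn4 were lower in WT Fasting than in WT Refed livers (log2 fold changes -1.46 and -0.87, adjusted p = 0.00922 and 0.048). They were also lower in NAMPT LKO Fasting livers (-1.32 and -0.79), together with the sterol enzyme Sqle (-2.25, adjusted p = 0.031). The retinal reductase Dhrs3 was higher there (0.46, adjusted p = 0.043). In WT Fasting against WT Refed livers Sqle was at -2.31 (adjusted p = 0.0641) and Dhrs3 at 0.46 (adjusted p = 0.0738), neither called. Lss and Sqle act in cholesterol synthesis, although part of their protein sits on droplets.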

How the data were processed

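The authors aligned 50-base single reads of poly-A RNA with STAR to GRCm38 (STAR 2.5.1a and featureCounts 1.4.6-p5 in the submitters' processing notes, while the study's methods name other versions) and deposited, per Ensembl gene, the read count. The deposited CPM values scale that count by the library total, and the deposited RPKM values further divide by exonic length. They were recomputed from the counts and matched. A strand setting is not given in the sources used here.

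From the counts, 13444 genes that exceeded 1 CPM in any library and were not rRNA entered a quasi-likelihood test in edgeR 4.0.16 (R 4.3.3) after TMM scaling, with 1 mean per group, the 10 libraries together and Benjamini-Hochberg adjustment. Levels per kb divide TMM-normalized CPM by exonic length. Ratios used counts per kb with 0.5 count added and an exact two-sided permutation test (scipy 1.17.1). Symbols came from GENCODE, and gene starts and overlaps came from the gene coordinates deposited with the counts. Alternatives were limma 3.58.1 (voomWithQualityWeights), DESeq2 1.42.0, other normalizations and filters, fewer groups, a block for replicate number, and fits that left out 1 library each. The fit without WT Fasting mouse 3 and NAMPT LKO mouse 5 was chosen after seeing the data. Only the quasi-likelihood test was tried on simulated data, and only for WT Fasting against WT Refed livers.

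The droplet genes and lists were chosen with earlier results of these data known. Named are all 10 droplet genes, Plin1, Cidea, Lipe, Mgll, Nampt, up to 3 called rises and falls per list and comparison, and the 3 genes most correlated with each called droplet gene; list genes called in only 1 comparison were given in the other after their values were seen. Each library is a different mouse, and p-values measure the spread between these mice. Depth was 30603080 to 43434139 counts per library, and Hilpda, at 45 to 80 counts, was the droplet gene with the least precise counting. Of the 100 list names, 2 matched no symbol in the files and 4 did not pass the filter.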

Additional observations from a re-analysis of the deposited data

Results flagged for a closer look

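G0s2 in NAMPT LKO Fasting mouse 3, at 306 CPM, lay far above the other 4 NAMPT LKO livers (158 to 184 CPM). Its gap to the nearest liver was 0.827 of the group's range, above Dixon's 95% critical value of 0.71 for 5 samples. It was the 1 value so marked of 17 examined in that group (10 levels, 3 ratios and 4 perilipin shares), where chance marks about 1 in 20. Without that liver the log2 fold change of G0s2 of NAMPT LKO Fasting over WT Fasting livers was 0.64 (adjusted p = 0.821, edgeR's quasi-likelihood test). Groups of 2 and 3 livers were too small for this check, so WT Fasting mouse 3 was not examined by it.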

How the results depend on the processing

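Of 506 fold changes of the 10 droplet genes and Nampt under the alternatives, 441 kept their direction and side of the threshold, 27 lost and 18 gained a call and 20 changed sign; 0 of the 10 were called in NAMPT LKO Fasting against WT Fasting livers under any alternative run. For WT Fasting against WT Refed livers, voomWithQualityWeights called 7 droplet and 29 list genes, the fit of only the groups compared 6 droplet genes, and the fit without WT Fasting mouse 3 and NAMPT LKO mouse 5 (chosen after seeing the data) 7 and 17. With each library left out the counts ran from 0 to 4 and from 1 to 4. For NAMPT LKO Fasting against WT Refed livers the list genes called were 35 with voomWithQualityWeights and 26 in the fit without both livers, the droplet genes 3 with only the groups compared, and the ranges with each library left out 0 to 6 and 0 to 24, the highest being without NAMPT LKO mouse 5 and the lowest without a WT Refed library. The list counts are of 94 genes tested. Over all genes, voomWithQualityWeights called 24.8% for WT Fasting and 31.8% for NAMPT LKO Fasting against WT Refed livers. The fit without both livers called 17.0% and 24.8%. For the fits of only the groups compared this share was not computed, so their droplet counts cannot be set against all genes. The cause of these changes in number was not tested. The ratio of Plin5 to Plin2 in NAMPT LKO Fasting against WT Fasting livers ran from -0.194 to 0.0167 with each library left out, the highest without NAMPT LKO mouse 1.

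The values that changed sign were near 0 and not called. For NAMPT LKO Fasting against WT Fasting livers, Cidec was at -0.058 with voomWithQualityWeights, -0.0346 with library size alone, -0.00764 without the filter, -0.177 without both livers, and -0.0874 to 0.159 with each library left out. Abhd5 was at 0.0167 with voomWithQualityWeights, 0.0514 without both livers and -0.121 to 0.0135 with each library left out, and Plin3 at 0.0193 without both livers. With each library left out, G0s2 ran from -0.338 to 0.14 in NAMPT LKO Fasting against WT Refed livers, Cideb from -0.087 to 0.0399 and Nampt from -0.106 to 0.546 in WT Fasting against WT Refed livers, where Nampt was at -0.0964 without both livers.

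The replicate numbers name different mice, and deviations of same-numbered libraries correlated at 0.104, 0.078 and 0.097, so the numbers were not taken as a pairing. With a replicate block over libraries 1 to 3, 0 of the 10 droplet genes were called, and Plin3 was at 0.0555 and Cidec at -0.00632 (0.0562 and -0.00258 without the block). Nampt kept a log2 fold change of -2.78 there (adjusted p = 0.099, 0.264 without the block).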
